A study of Mus musculus with 150 samples.

Results

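Voltage-gated calcium channels are named after the alpha-1 subunit that forms the pore, and the 8 alpha-1 genes Cacna1a, Cacna1b, Cacna1c, Cacna1d, Cacna1e, Cacna1g, Cacna1h and Cacna1i were taken by symbol from a table of 54082 genes in 150 single mouse neurons. All 8 had a row. The neurons are labelled as somatosensory neurons of CD1 mice (strain #022, Charles River), untreated as far as the labels say, and each is labelled by the skin it innervated. There were 45 hairy-skin cells, 1 cell with both labels, which entered no comparison, and the rest were glabrous-skin cells. The pups came from 10 litters, of age P5 except for 33 cells of litters K and P_Q at P4, that is postnatal day 5 or 4. The labels do not say how the skin target of a neuron was found. No label ties cells to single animals, and several litter names join letters, so the litter was the smallest unit that could serve as replicate.

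The families of alpha-1 subunit differ in the voltage at which they open. The P/Q-, N- and R-type channels (Cacna1a, Cacna1b and Cacna1e) open at strong depolarization and drive transmitter release, and in the central endings of pain fibres the N-type channel is the target of the analgesic ziconotide. L-type channels (Cacna1c and Cacna1d) couple depolarization to gene expression and, through Cacna1d, also open at more negative voltages. T-type channels (Cacna1g, Cacna1h and Cacna1i) open near the resting potential and set excitability, and in mice Cacna1h is known from the D-hair receptor, an Ntrk2-bearing thinly myelinated touch neuron of hairy skin.

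Each cell held 395811 to 1053854 counts (median 734269) and 4360 to 15865 detected genes, and 6 cells had fewer than 10000. Levels are counts per 1000000 counts of the cell (CPM). At this depth 1 count is worth about 1 CPM, so levels of a few CPM rest on a few counts, and intervals given here cover counting error only. Neurons were sorted by marker levels that use no calcium channel gene. Cells with at least 500 CPM of Nefh, the heavy neurofilament of myelinated neurons, were called Nefh-high. Nefh-high cells with at least 500 CPM of the peptide gene Calca formed the Nefh-high Calca-high group, and the others went to the highest of the receptors Ntrk2, Ntrk3 and Ret. Nefh-low cells with at least 100 CPM of Tafa4, a marker of C-fibre touch neurons, formed the Tafa4-high group, and others with at least 500 CPM of Calca the Calca-high group. These groups are ranges of marker levels, not cell types, and 7 cells lay within 1.5 times of the Nefh limit, 2 of the Calca limit, 2 of the Tafa4 limit and 6 of a tie between receptors.

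The resulting groups held 16 Ntrk2-dominant cells (2 hairy, 14 glabrous), 17 Ntrk3-dominant cells (0 hairy, 17 glabrous) and 35 Ret-dominant cells (10 hairy, 25 glabrous). A further 35 cells were Nefh-high Calca-high (7 hairy, 28 glabrous), 20 were Tafa4-high (14 hairy, 6 glabrous), 15 were Nefh-low Calca-high (9 hairy, 6 glabrous) and 11 were neither (3 hairy, 8 glabrous). The levels of Ntrk2, Calca and Tafa4 follow largely from the sorting itself, so only the other markers bear on the names. Ntrk2-dominant cells had a median of 439 CPM Ntrk2 and 126.2 CPM Colq, a D-hair marker, with Calca at a median of 0. As 14 of these 16 cells were glabrous and the D-hair receptor is of hairy skin, the group is not called D-hair here. Tafa4-high cells had medians of 869 CPM Tafa4 and 177 CPM Zfp521, and Calca-high cells 7402 CPM Calca and 4337 CPM Tac1. Mafa, a touch neuron factor, had a median of 0 in every group, and Th, which marks C-fibre touch neurons of adult mice, had a median of 4.91 CPM in Tafa4-high cells. The 11 remaining cells had a median of 10718 detected genes. Their median summed level over 6 sensory neuron markers was 749 CPM, against 5401 to 8230 CPM in the other groups. They stand on neither side of a neuron-group contrast. Their sums from litters I and P_Q were nonetheless part of the shared neuron-group fit, and the cells were part of the hairy, glabrous and age sums of all neurons.

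Promoter sequences of 5 of the 8 genes were matched in a RefSeq table of assembly GRCm38.p6, which spans 250 bases before to 50 after each start. The 5 genes are Cacna1b, Cacna1c with 3 starts, Cacna1d with 2 starts, Cacna1e and Cacna1i. Those of the genes that differed between neuron groups in the contrasts described further on are shown, for Cacna1c the 2 upstream starts. Capitals mark matches on either strand to TGTGGT (the RUNX core), TATAAA (the TATA box) or GGGCGG (the GC box).
Cacna1b, chr2:24763103-24763402, minus strand: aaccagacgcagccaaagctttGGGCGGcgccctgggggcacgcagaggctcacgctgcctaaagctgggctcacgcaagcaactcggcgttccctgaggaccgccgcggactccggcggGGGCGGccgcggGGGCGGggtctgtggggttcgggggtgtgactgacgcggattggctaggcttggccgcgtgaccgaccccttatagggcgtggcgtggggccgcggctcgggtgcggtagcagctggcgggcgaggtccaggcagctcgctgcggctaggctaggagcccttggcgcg
Cacna1c first start, chr6:119196360-119196659, minus strand: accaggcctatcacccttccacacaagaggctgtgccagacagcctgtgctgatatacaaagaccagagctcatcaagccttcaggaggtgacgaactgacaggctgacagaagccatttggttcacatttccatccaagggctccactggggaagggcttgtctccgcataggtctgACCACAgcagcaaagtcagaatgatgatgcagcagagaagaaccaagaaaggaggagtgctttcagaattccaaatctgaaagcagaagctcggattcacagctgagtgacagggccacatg
Cacna1c second start, chr6:119108446-119108745, minus strand: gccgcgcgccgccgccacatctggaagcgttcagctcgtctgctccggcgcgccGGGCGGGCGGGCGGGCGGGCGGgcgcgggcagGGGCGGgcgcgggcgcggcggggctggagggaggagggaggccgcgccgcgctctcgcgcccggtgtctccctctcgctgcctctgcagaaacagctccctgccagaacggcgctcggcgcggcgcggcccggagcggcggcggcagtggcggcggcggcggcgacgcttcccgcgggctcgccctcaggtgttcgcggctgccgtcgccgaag
Cacna1i, chr15:80286988-80287287, plus strand: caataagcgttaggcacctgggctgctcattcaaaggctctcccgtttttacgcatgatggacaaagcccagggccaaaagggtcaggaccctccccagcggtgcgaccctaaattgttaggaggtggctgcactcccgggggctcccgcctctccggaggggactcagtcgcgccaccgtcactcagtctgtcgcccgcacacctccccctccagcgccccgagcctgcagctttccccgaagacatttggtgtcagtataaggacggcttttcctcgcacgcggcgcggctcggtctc
The upstream Cacna1c window was 51.3% G or C and held 1 RUNX core, a match found in 16.8% of 32851 promoters of the same length. The second Cacna1c window was 81.3% G or C with 6 GC boxes, some of them overlapping, and the Cacna1b window was 72.3% G or C with 3. GC boxes were found in 35.7% of all promoters, whose median was 52.7% G or C. In the Cacna1i window, 62.7% G or C, none of the 3 motifs was found, which says only that those letters are not in those 300 bases. A match is a description of the sequence and not a binding site.

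Cacna1b, which encodes the N-type pore, was detected in 95.3% of cells, with cell medians of 34.9 CPM in Ntrk2-dominant, 32.1 CPM in Ntrk3-dominant, 34.1 CPM in Ret-dominant and 41.8 CPM in Nefh-high Calca-high cells. The Nefh-low medians were 44.6 CPM in Tafa4-high cells (range 12.8 to 226) and 80.8 CPM in Calca-high cells (0 to 256). Litter sums, the counts of all cells of a group in a litter with at least 2 such cells, averaged 39.8 ± 9.85 CPM (SD, n = 3) in Ntrk2-dominant, 41.1 ± 8.60 (n = 3) in Ntrk3-dominant and 42.2 ± 15.2 (n = 7) in Ret-dominant cells. They averaged 61.7 ± 21.9 CPM (n = 8) in Nefh-high Calca-high, 73.1 ± 41.8 (n = 7) in Tafa4-high and 88.7 ± 28.1 (n = 6) in Nefh-low Calca-high cells. The ranges of neighbours in this order overlapped throughout.

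Cacna1a, the P/Q-type pore, was seen in 95.97% of cells at lower CPM. Its litter sums averaged 22.6 ± 6.04 CPM in Ntrk2-dominant, 14.3 ± 3.77 in Ntrk3-dominant and 18.0 ± 4.55 in Ret-dominant cells (SD, n = 3, 3 and 7). They averaged 22.0 ± 7.74 CPM (n = 8) in Nefh-high Calca-high, 18.5 ± 8.64 (n = 7) in Tafa4-high and 42.03 ± 28.7 (n = 6) in Nefh-low Calca-high cells. The Calca-high sums spread from 13.04 to 85.04 CPM and so overlapped every other named group. Cacna1e, the R-type pore, was sparse in most cells. It was found in 6 of 16 Ntrk2-dominant, 12 of 17 Ntrk3-dominant, 17 of 35 Ret-dominant, 23 of 35 Nefh-high Calca-high, 5 of 20 Tafa4-high and 10 of 15 Nefh-low Calca-high cells. Its highest cells held 89 CPM in the Nefh-high Calca-high and 77.1 CPM in the Nefh-low Calca-high group, and the highest Ntrk2-dominant cell held 5.91 CPM.

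The L-type genes ran in opposite orders among the Nefh-low cells. Cacna1c, the main L-type pore of heart and smooth muscle and of many neurons, had cell medians of 8.16 CPM (0 to 50.3) in Tafa4-high and 47.3 CPM (0 to 344) in Nefh-low Calca-high cells. In Nefh-high cells its medians were 1.98 CPM in Ntrk2-dominant, 5.06 in Ntrk3-dominant, 1.55 in Ret-dominant and 12.4 in Nefh-high Calca-high cells. Cacna1d, the pore of the low-voltage L-type channel, was detected in 10 of 20 Tafa4-high and 2 of 15 Nefh-low Calca-high cells. In the Nefh-high groups it was found in 15 of 16 Ntrk2-dominant, 16 of 17 Ntrk3-dominant, 29 of 35 Ret-dominant and 28 of 35 Calca-high cells, at medians of 3.80 to 5.78 CPM. The single highest Cacna1d cell, at 180 CPM, was one of the 11 cells outside the named groups.

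Cacna1h was the one T-type gene found in most cells, 85.2%, and its medians in the named groups ran from 105.1 CPM in Ntrk2-dominant cells to 5.07 CPM in Nefh-low Calca-high cells. In between stood 22.1 CPM in Tafa4-high, 14.1 in Ret-dominant, 12.6 in Nefh-high Calca-high and 7.71 CPM in Ntrk3-dominant cells. Cacna1g, a T-type pore known from thalamus and heart, was close to undetected, in 12 cells of all groups, with 1 Ntrk2-dominant cell at 24.1 CPM as the highest. Cacna1i, the slow T-type pore known from the thalamic reticular nucleus, was found in 19 cells, of which 12 were Tafa4-high.

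**Figure D1:**
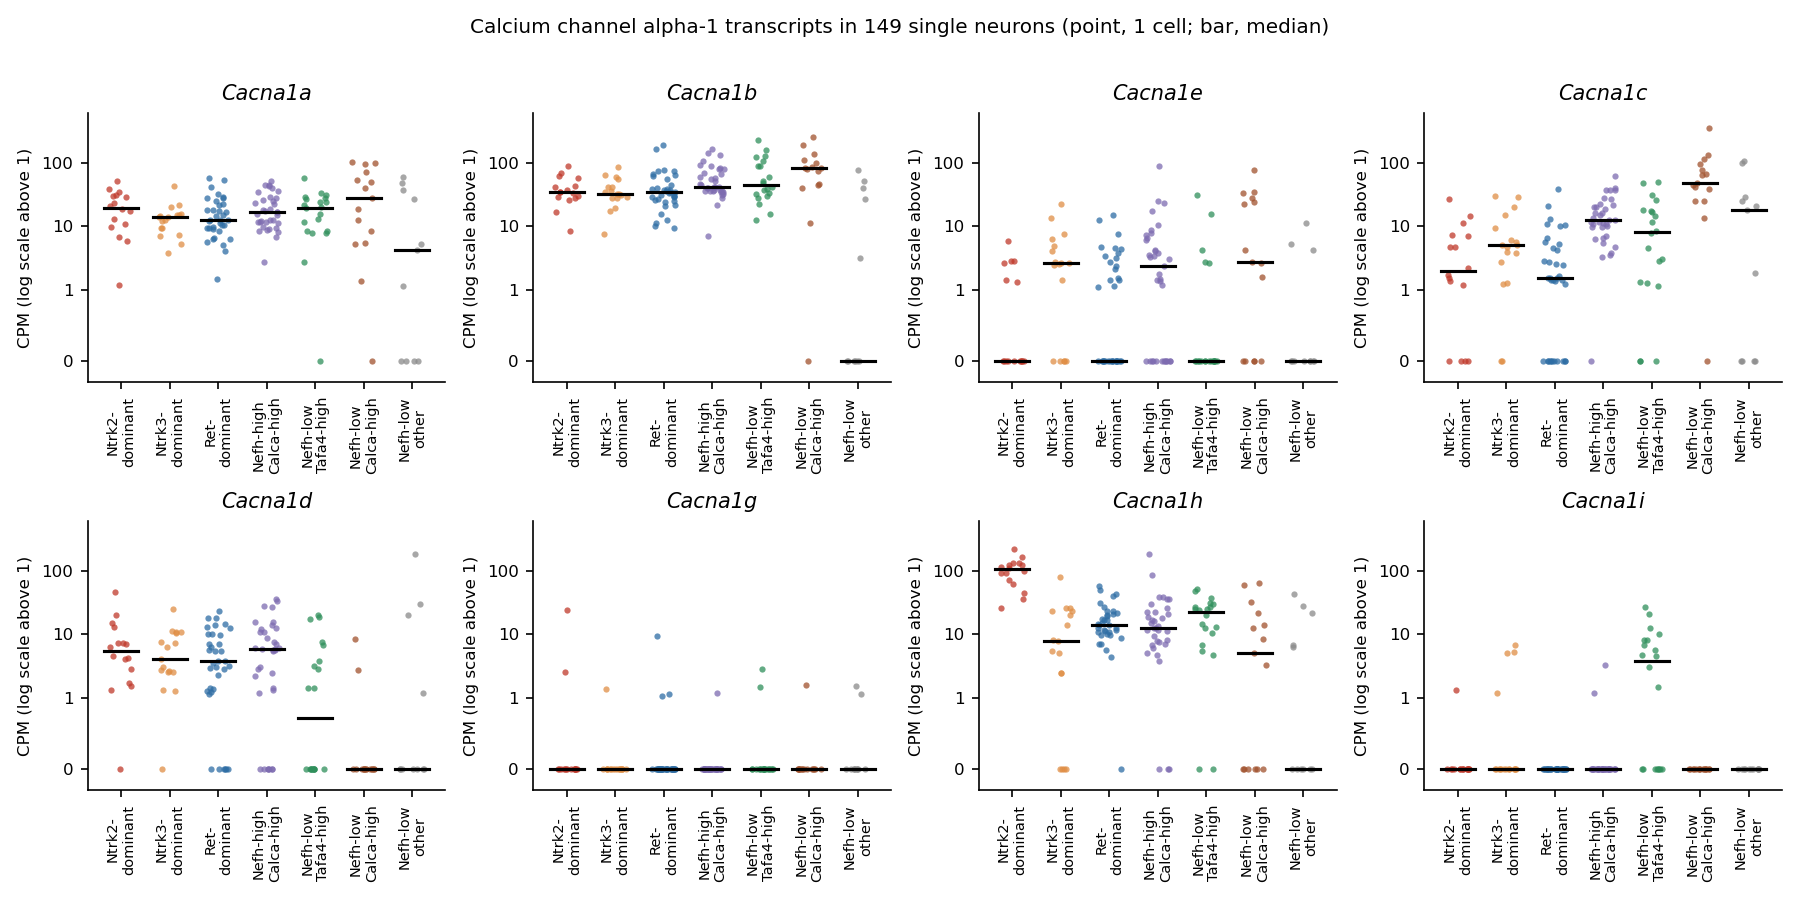
CPM of the 8 genes in each cell with 1 skin label (points) by neuron group, with the median as a bar, on a scale that is linear to 1 CPM and logarithmic above. Cacna1h stands at a median of 105.1 CPM in Ntrk2-dominant cells, Cacna1c at 47.3 CPM in Nefh-low Calca-high cells, and Cacna1i is above 0 in 12 of 20 Tafa4-high cells.

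Ntrk2-dominant cells carried several times more Cacna1h than the other Nefh-high cells with low Calca. The 16 cells ranged from 25.7 to 217 CPM, that is 15 to 184 counts a cell. The 17 Ntrk3-dominant cells ranged from 0 to 80.6 CPM and the 35 Ret-dominant cells from 0 to 56.6 CPM. Of the 16 Ntrk2-dominant cells, 11 lay above every Ntrk3- and Ret-dominant cell and 15 lay above their 90th percentile of 30.7 CPM. Among the 20 cells with the most Cacna1h of all, 13 were Ntrk2-dominant, and the cell ranked 2, a Nefh-high Calca-high cell of litter H at 180 CPM, held 467 CPM Ntrk2. Both hairy Ntrk2-dominant cells, at 130.3 CPM (litter P_Q) and 43.8 CPM (litter C_D), lay within the range of the 14 glabrous ones.

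**Figure D2:**
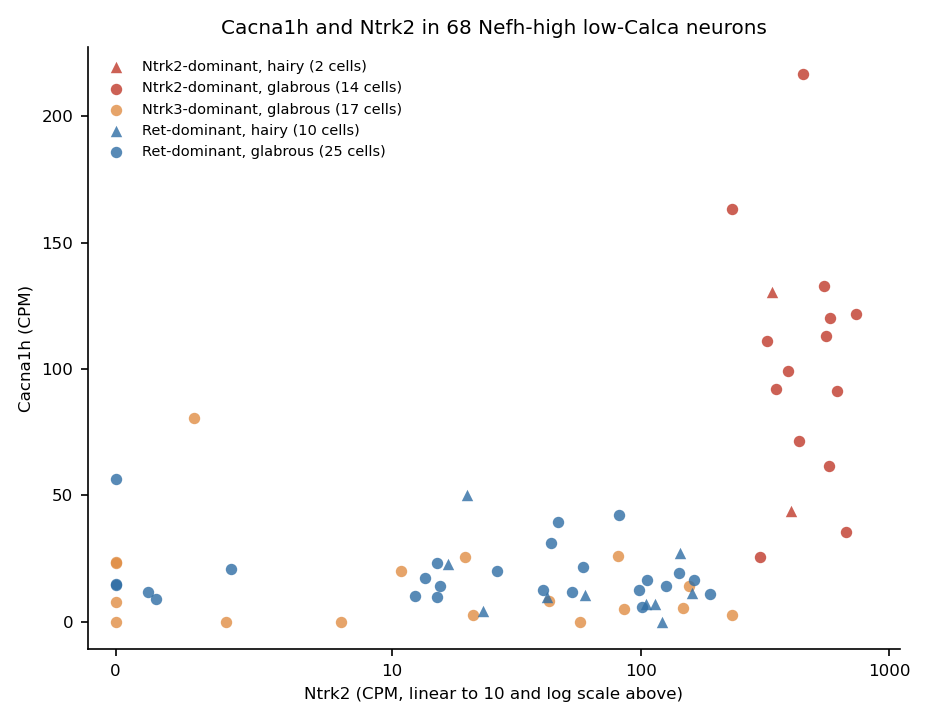
Cacna1h (CPM) against Ntrk2 (CPM, linear to 10 and logarithmic above) in 68 Nefh-high cells with low Calca, coloured by neuron group, triangles for hairy and circles for glabrous cells. Ntrk2-dominant cells, at 232 to 735 CPM Ntrk2, reach 217 CPM Cacna1h, whereas the highest Ntrk3- or Ret-dominant cell is at 80.6 CPM.

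Within the groups Cacna1h had no positive rank correlation with Ntrk2. Spearman correlations of Cacna1h with Ntrk2 were -0.07 over 16 Ntrk2-dominant, -0.11 over 17 Ntrk3-dominant and -0.17 over 35 Ret-dominant cells, as a description of cells that share litters and libraries. Ntrk2 ran from 232 to 735 CPM in Ntrk2-dominant cells.

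Litter sums gave the same order. Ntrk2-dominant sums of Cacna1h were 108.2 CPM in litter E_F_G, 120.5 in litter I and 121.5 in litter P_Q. Ntrk3-dominant sums were 11.5 (E_F_G), 8.25 (I) and 36.4 CPM (O), and the 7 Ret-dominant sums had a lowest of 12.8, a median of 16.3 and a highest of 36.9 CPM. Ntrk3- and Ret-dominant sums overlapped each other, and the Ntrk2-dominant sums overlapped neither. The lowest Ntrk2-dominant sum also stood above the highest sum of any other neuron group, 96.3 CPM in Nefh-high Calca-high cells of litter H. How many of all genes separate in this way was not counted. Single Ntrk2-dominant cells of litters H, C_D and L, which formed no sum, held 92.2, 43.8 and 25.7 CPM. The cell of litter L thus lay below the highest Ntrk3- and Ret-dominant sums.

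Against the mean of Ret- and Ntrk3-dominant sums, Cacna1h was higher in Ntrk2-dominant sums by 2.89 ± 0.62 on the log2 scale (SE, adjusted p = 0.0321, edgeR's quasi-likelihood test with the litter as a block and Benjamini-Hochberg adjustment over 15306 genes). In that contrast 59 genes passed, or 0.385% of those tested, 22 of them higher (0.144%) and 37 lower (0.242%). Cacna1h was the 1 of 8 alpha-1 genes that passed. Their median log2 change, with Cacna1i (at 0 in Ret-dominant cells) among them, was 0.20, against -0.015 over all genes tested. The change was 2.67 ± 0.68 against Ret-dominant cells alone (adjusted p = 0.0914, edgeR) and 3.10 ± 0.86 against Ntrk3-dominant cells alone (adjusted p = 0.219, edgeR), and these comparisons share the Ntrk2-dominant sums. In them 0.412% of genes passed against Ret-dominant cells (0.105% higher, 0.307% lower) and 0.144% against Ntrk3-dominant cells (0.0849% higher, 0.0588% lower). With DESeq2 the adjusted p of Cacna1h was 0.0065 and 0.0098 in these comparisons. The call rests on 3 litters with a Ntrk2-dominant sum: the change stayed between 2.50 and 3.05 when litters were left out in turn, but the adjusted p was 0.411 without litter E_F_G, 0.315 without litter I and 0.0548 without litter M. Within plate 1 the change was 3.04 (adjusted p = 0.0178, edgeR). Within plate 2, where litter P_Q alone had a Ntrk2-dominant sum, it was 2.16 (adjusted p = 0.681, edgeR).

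The other alpha-1 genes differed less surely between Ntrk2-dominant and the other 2 groups. Cacna1b changed by 0.20 ± 0.46, Cacna1a by 0.61 ± 0.44, Cacna1d by 0.20 ± 0.99 and Cacna1c by -0.32 ± 0.60 on the log2 scale, each with an adjusted p of 1.00 (edgeR). Cacna1e stood at -2.17 ± 1.40 (adjusted p = 0.963, edgeR) on 13 counts in Ntrk2-dominant cells. Cacna1g stood at 3.24 ± 1.496 (adjusted p = 0.759, edgeR) on 17 counts, of which most came from the 1 cell at 24.1 CPM. Schwann cell markers (Mbp, Pmp22 and Prx) summed to a median of 1564 CPM (878 to 6846) in Ntrk2-dominant cells, against 1060 CPM (42.2 to 3958) in Ntrk3-dominant and 1348 CPM (639 to 8323) in Ret-dominant cells. Their part in these values was not tested.

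Divided by the summed exon length of each gene (from 9.763 kb for Cacna1h to 25.228 kb for Cacna1e, GENCODE vM21), the levels can be set side by side. No label says whether the deposited counts were already scaled for length. Shares are therefore given on both scales for Cacna1h in Ntrk2-dominant sums and for Cacna1c and Cacna1b in Nefh-low Calca-high sums. Cacna1h made up 62.6 ± 5.95% of the summed CPM per kb of the 8 genes in Ntrk2-dominant litter sums (SD, n = 3), and 59.9 ± 6.76% of the CPM without division by length. On the per-kb scale the share was 20.4 ± 10.97% in Ntrk3-dominant (n = 3), 24.9 ± 13.1% in Ret-dominant (n = 7) and 19.5 ± 9.89% in Nefh-high Calca-high sums (n = 8). It was 16.3 ± 7.42% in Tafa4-high (n = 7) and 8.42 ± 4.16% in Nefh-low Calca-high sums (n = 6). In the Nefh-low Calca-high sums Cacna1c made up 17.9 ± 8.02% per kb, and 29.1 ± 11.03% of the CPM without division by length. Cacna1b made up 51.3 ± 13.3% per kb and 41.1 ± 14.5% of the CPM there. These shares follow the levels already tested and are given without a test of their own.

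Per kb, Cacna1h was the highest alpha-1 gene in 15 of 16 Ntrk2-dominant cells. Cacna1b was the highest in 15 of 17 Ntrk3-dominant, 23 of 35 Ret-dominant, 29 of 35 Nefh-high Calca-high, 18 of 20 Tafa4-high and 12 of 15 Nefh-low Calca-high cells. T-type genes together made up a median of 60.4% of a Ntrk2-dominant cell's summed CPM per kb, against 12% in Ntrk3-dominant and 21.2% in Ret-dominant cells. In Tafa4-high cells the T-type share was 19.9%, against 2.5% in Nefh-low Calca-high cells, where L-type genes made up 14.9%. A cell held a median of 5 of the 8 genes, and 2 cells, both outside the named groups, held none.

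**Figure D3:**
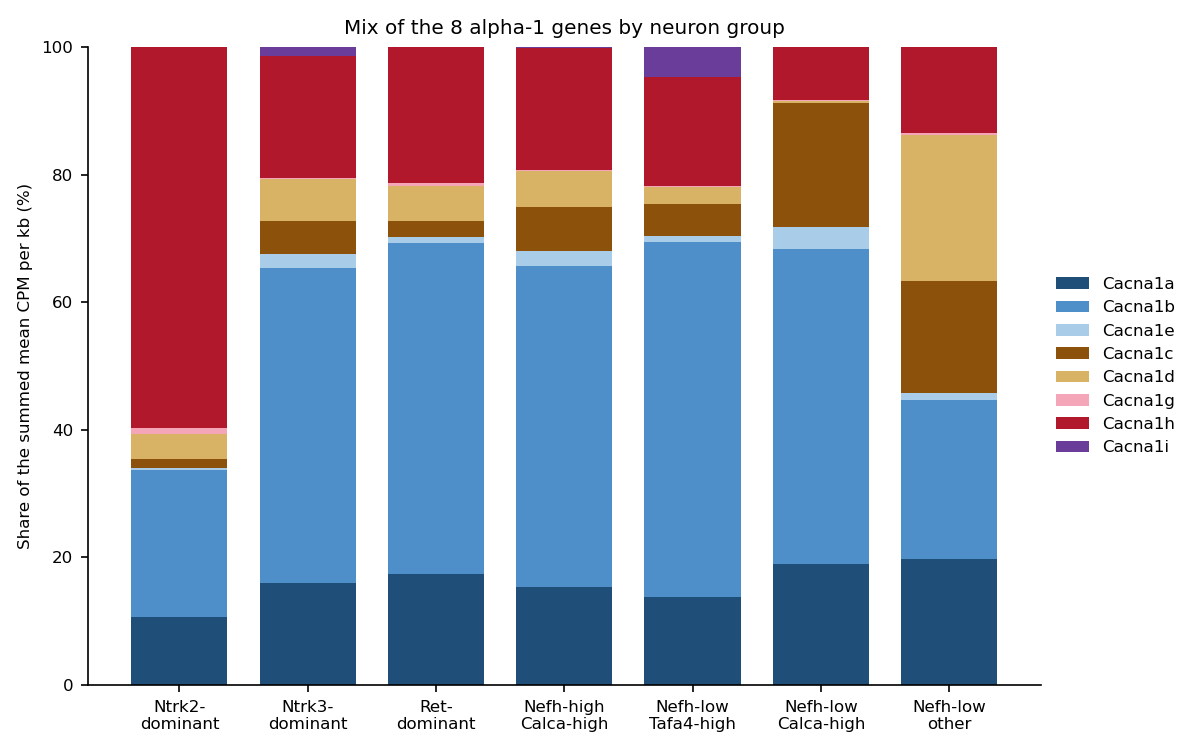
Share (%) of each gene in the summed mean CPM per kb of exon length, stacked to 100% for each neuron group. Cacna1h takes 59.6% in Ntrk2-dominant cells and 8.3% in Nefh-low Calca-high cells, where Cacna1c takes 19.5%.

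Nefh-high cells with low Calca were then set against Nefh-low cells. Cacna1c and Cacna1b were lower and Cacna1h was higher in Nefh-high sums, while the other 5 genes did not pass. Cacna1c sums averaged 4.60 ± 3.97 CPM in Ntrk2-dominant (SD, n = 3), 10.2 ± 4.61 in Ntrk3-dominant (n = 3) and 4.10 ± 2.32 CPM in Ret-dominant cells (n = 7), against 13.5 ± 5.70 in Tafa4-high (n = 7) and 76.6 ± 59.4 CPM in Nefh-low Calca-high cells (n = 6). No Nefh-high sum with low Calca passed 14.5 CPM, and every Nefh-low Calca-high sum was at 19.2 CPM or more. Tafa4-high sums, at 5.92 to 21.4 CPM, overlapped both.

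In this contrast of the mean of the 3 Nefh-high groups over the mean of the Tafa4-high and Calca-high groups, 22.2% of 15306 genes passed, 12.5% higher and 9.66% lower. Cacna1c fell by 2.21 ± 0.38 on the log2 scale (SE, adjusted p = 9.8e-05, edgeR) and Cacna1b by 0.93 ± 0.31 (adjusted p = 0.0335, edgeR), and Cacna1h rose by 1.29 ± 0.44 (adjusted p = 0.0331, edgeR). The Cacna1h sums of Ret- and Ntrk3-dominant cells, 20.7 ± 9.68 and 18.7 ± 15.4 CPM, lay close to those of Tafa4-high and Calca-high cells, 19.5 ± 9.49 and 15.2 ± 11.9 CPM, so that the higher mean is that of the Ntrk2-dominant group. Cacna1d stood at 1.85 ± 0.72 (adjusted p = 0.0666, edgeR), and it passed with DESeq2 (adjusted p = 0.0208) and, with edgeR, without litter P_Q (2.33, adjusted p = 0.0191). Without litter E_F_G it was 2.67 (adjusted p = 0.0870, edgeR). Cacna1a stood at -0.46 ± 0.31 (adjusted p = 0.316, edgeR), Cacna1e at -0.50 ± 0.99 and Cacna1g at 1.65 ± 1.54. Cacna1i gave no usable estimate because its counts were 0 in whole groups. The Cacna1b call ended without litter E_F_G, I, M or O, and the Cacna1h call without E_F_G, H, M or O (adjusted p up to 0.0969 and 0.132, edgeR), whereas the Cacna1c change held at -2.30 to -2.16. With at least 3 cells per sum Cacna1b was at -0.50 (adjusted p = 0.221) and Cacna1h at 0.71 (adjusted p = 0.227, edgeR), and within plate 2 the adjusted p was 0.113 for Cacna1b, 0.298 for Cacna1h and 0.0531 for Cacna1c (edgeR). Schwann cell markers summed to medians of 4252 CPM in Tafa4-high and 2736 CPM in Nefh-low Calca-high cells, above the 1060 to 1564 CPM of the Nefh-high groups with low Calca, and their part in this contrast was not tested.

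Among Nefh-low cells, Tafa4-high cells had less Cacna1c and, mainly in litters of plate 2, more Cacna1i than Calca-high cells. Cacna1c sums of Tafa4-high cells had a lowest of 5.92, a median of 14.8 and a highest of 21.4 CPM over 7 litters. Calca-high sums had a lowest of 19.2, 2 middle values of 45.6 and 88.9, and a highest of 183 CPM (litter M) over 6 litters. The ranges overlapped at their edges, and in each of the 6 litters with both sums the Tafa4-high one was lower, by the least in litter H (17.8 against 19.2 CPM). Cacna1c fell by 2.35 ± 0.47 on the log2 scale in Tafa4-high sums (SE, adjusted p = 0.0019, edgeR), in a contrast in which 9.21% of genes passed, 4.76% higher and 4.44% lower. Leaving out litters in turn gave -2.70 to -1.96, and with glabrous cells alone the change was -1.27 (adjusted p = 0.411, edgeR). Within plate 1 it was -1.62 (adjusted p = 0.171, edgeR).

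Cacna1i was detected in 12 of 20 Tafa4-high cells (60%, exact 95% interval 36.1 to 80.9%), with 78 counts in all. The interval, and the limits given below for counts of 0, treat cells as independent, although detection differed between litters. Its Tafa4-high sums were 11.3 (litter L), 7.55 (M), 3.64 (P_Q), 2.37 (O), 1.71 (E_F_G), 0 (H) and 0 CPM (I). Litters L, M, O and P_Q shared plate 2 and a cDNA batch, and E_F_G, H and I were on plate 1. In the plate 1 sums the only counts were 4, from 1 cell of litter E_F_G. Litter and plate cannot be told apart here. All 15 Nefh-low Calca-high cells and all 35 Ret-dominant cells had 0 counts, which allows up to 20% and 8.57% of such cells with a count, taking 3 cells as the limit that a count of 0 allows. The pooled Tafa4-high level of 5.35 CPM was 18.4 times the level that 3 counts over the Calca-high group would give. That ratio leaves out the counting error and the litter spread of the Tafa4-high level. In litters H and I both groups were at 0. In edgeR's test Cacna1i passed with an adjusted p of 0.0428, but not without litter E_F_G, I, O or P_Q (adjusted p up to 0.159, edgeR), and without litter L or M it had too few counts to be tested. It did not pass with DESeq2 (adjusted p = 0.585). Outside the Tafa4-high group it was found in 4 of 17 Ntrk3-dominant, 2 of 35 Nefh-high Calca-high and 1 of 16 Ntrk2-dominant cells, each at 6.85 CPM or less.

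The remaining genes did not pass between Tafa4-high and Calca-high sums. Cacna1e stood at -3.20 ± 1.12 (adjusted p = 0.0736, edgeR), Cacna1d at 2.40 ± 0.97 (adjusted p = 0.132), Cacna1a at -1.001 ± 0.38 (adjusted p = 0.107), Cacna1b at -0.51 ± 0.38 (adjusted p = 0.475) and Cacna1h at 0.49 ± 0.56 (adjusted p = 0.663). Sums of Cacna1d were 0 in 4 of the 6 Calca-high litters and 1.02 and 2.86 CPM in the others, against 0 to 9.90 CPM in 7 Tafa4-high litters. Fibroblast markers summed to a median of 172 CPM (0 to 5065) in Tafa4-high and 389 CPM (123.4 to 1764) in Calca-high cells, and smooth muscle markers to 23.5 and 16.0 CPM. Their part in the L-type values was not tested.

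**Figure D4:**
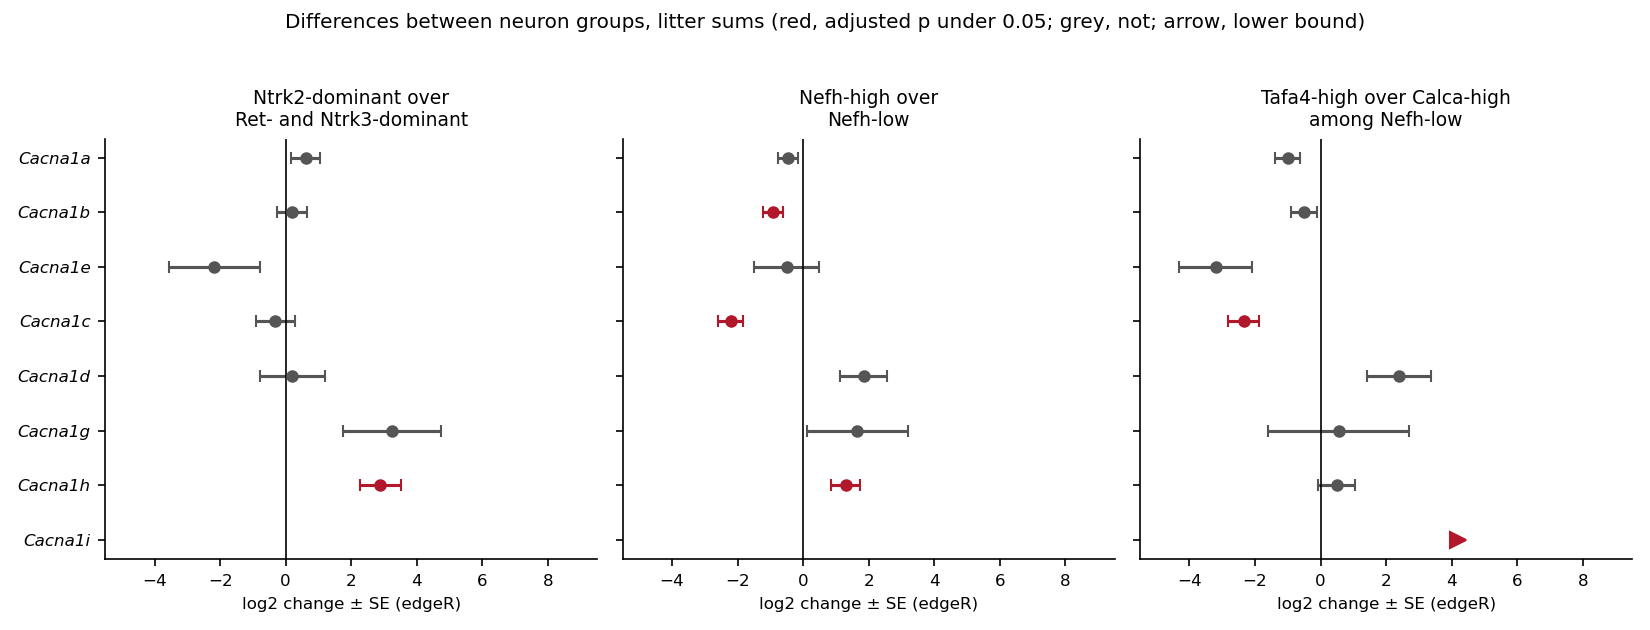
Log2 change ± SE (edgeR) of the alpha-1 genes in 3 contrasts of litter sums, with red for an adjusted p under 0.05 and grey for the rest. Cacna1h stands at 2.89 and 1.29 in the left and middle panels and Cacna1c at -2.21 and -2.35 in the middle and right ones. The arrow, named a lower bound in the picture, is the pooled Tafa4-high Cacna1i level over a floor of 3 counts in Calca-high cells. It leaves out the error of the Tafa4-high level. Cacna1i is not drawn elsewhere because a whole group was at 0.

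Genes for the partners of the channels were read from 4 lists, chosen with earlier results of these data known. Of 16 auxiliary subunit genes 11 were tested. None passed for Ntrk2-dominant cells, where 3 were at an unadjusted p under 0.05 (edgeR) and the median change was 0.21. The beta subunit gene Cacnb2, whose product carries alpha-1 subunits to the membrane, had 1 count in the 16 Ntrk2-dominant cells, while its sums averaged 8.27 CPM in Ntrk3-dominant and 6.45 CPM in Ret-dominant cells (adjusted p = 0.0779, edgeR). The 2 auxiliary genes with the highest mean CPM over all cells, Cacnb3 and Cacnb4, had medians of 287 and 160 CPM in Ntrk2-dominant cells, against 206 and 44.8 CPM in Ntrk3-dominant and 289.9 and 120.7 CPM in Ret-dominant cells.

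Between Nefh-high and Nefh-low sums, 3 auxiliary genes rose and 2 fell (12.5% of all genes tested rose and 9.66% fell), with a median of -0.39 over the 11 genes, against 0.0025 over all genes tested. Cacnb4, another beta subunit, rose by 1.21 ± 0.30 (adjusted p = 0.0045), Cacna2d3 by 2.77 ± 0.54 (adjusted p = 0.00047) and Cacng2 by 3.95 ± 0.63 (adjusted p = 3.9e-05, edgeR for each). Cacng2 is named for a calcium channel subunit but is known mainly as a carrier of AMPA receptors. Cacna2d1, the alpha-2-delta subunit bound by gabapentin, fell by 1.53 ± 0.31 (adjusted p = 0.00055), and Cacna2d2 fell by 2.38 ± 0.34 (adjusted p = 1.2e-05, edgeR). Cacna2d3 averaged 59.9 CPM in Ntrk2-dominant, 73.3 in Ntrk3-dominant and 169 CPM in Ret-dominant sums, against 28.8 in Tafa4-high and 14.7 CPM in Nefh-low Calca-high sums. For Cacna2d1 the order was turned, with 53.1, 28.9 and 48.3 CPM in those Nefh-high groups, against 71.8 and 250 CPM in the Nefh-low groups.

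Within the Nefh-low cells, Cacnb4 rose in Tafa4-high sums by 1.36 ± 0.38 (adjusted p = 0.0241, edgeR), while 3 of the 11 auxiliary genes fell, in a contrast in which 4.76% of all genes tested rose and 4.44% fell. Cacna2d1 fell by 1.70 ± 0.37 (adjusted p = 0.0042) and Cacnb2 by 4.14 ± 0.85 (adjusted p = 0.0024, edgeR). Cacng3, like Cacng2 a carrier of AMPA receptors, passed as well (adjusted p = 0.00051, edgeR), with 3 counts in Tafa4-high cells and a pooled 14.4 CPM in Calca-high cells, a ratio of 0.014 (exact 95% interval 0.0029 to 0.0424). The median over the 11 genes was -0.38, against 0.0026 over all genes tested.

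Of 14 channel regulators, all tested, 4 rose and 3 fell in Nefh-high against Nefh-low sums, where 12.5% of all genes tested rose and 9.66% fell. Their median was 0.47, against 0.0025 over all genes. Rem2, a small GTPase that restrains high-voltage channels, rose by 4.86 ± 0.98 (adjusted p = 0.0006, edgeR). Rem2 averaged 33.7 CPM in Ntrk2-dominant, 70.4 in Ntrk3-dominant and 24.2 CPM in Ret-dominant sums, against 2.87 in Tafa4-high and 0.94 CPM in Calca-high sums. The related Gem passed too (adjusted p = 0.0313, edgeR), on 15 counts in Ntrk2-dominant, 14 in Ntrk3-dominant and 56 in Ret-dominant cells, against 7 in Tafa4-high and 9 in Calca-high cells. Its sums averaged 0.44 to 2.26 CPM, too low for a fold change to be given. Cabp1, a calmodulin-like protein that slows inactivation of L-type channels, rose by 4.37 ± 0.52 (adjusted p = 7.9e-07), and Calm3, a calmodulin gene, by 0.58 ± 0.16 (adjusted p = 0.0105, edgeR). Stac, an adaptor of L-type channels, fell by 1.76 ± 0.39 (adjusted p = 0.0018), Rims2, which tethers channels at release sites, by 0.97 ± 0.26 (adjusted p = 0.0087), and Gnao1, a G-protein subunit, by 1.13 ± 0.20 (adjusted p = 0.00015, edgeR).

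In Tafa4-high against Calca-high sums, 4 of the 14 regulators fell and 0 rose, against 4.44% and 4.76% of all genes tested, with 6 at an unadjusted p under 0.05 in either direction (edgeR) and a median of -0.94. Calm3 fell by 0.75, Cabp1 by 2.48, Rims2 by 1.64 and Rimbp2, a partner of the release-site scaffold, by 3.41 on the log2 scale (adjusted p of 0.0017 to 0.0409, edgeR). For Ntrk2-dominant cells none of the 14 regulators passed (edgeR, 0 also at an unadjusted p under 0.05), and the 2 with the highest mean, Calm2 and Gnb1, had medians of 2585 and 1003 CPM there, against 3392 and 979 CPM in Ret-dominant cells.

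Among 16 tested genes of calcium-activated channels, stores and pumps, 5 rose and 2 fell in Nefh-high against Nefh-low sums, against 12.5% and 9.66% of all genes tested, with a median of 0.09. The plasma membrane calcium pump genes Atp2b1 and Atp2b2 rose by 0.95 ± 0.19 (adjusted p = 0.00074) and 2.55 ± 0.43 (adjusted p = 8.2e-05), and the ryanodine receptor genes Ryr2 and Ryr3 by 1.85 ± 0.48 (adjusted p = 0.0056) and 2.11 ± 0.67 (adjusted p = 0.0233, edgeR). The pump gene Atp2b3 passed too (adjusted p = 3.2e-05, edgeR), with sums of 9.04, 15.7 and 6.46 CPM on average in Ntrk2-, Ntrk3- and Ret-dominant cells, against 0 counts in Tafa4-high and 35 counts in Calca-high cells. Atp2b4 fell by 3.25 ± 0.69 (adjusted p = 0.00099) and Kcnn2, a calcium-gated potassium channel gene, by 1.97 ± 0.40 (adjusted p = 0.00062, edgeR). Atp2b2 averaged 356 CPM in Ntrk2-dominant, 282 in Ntrk3-dominant and 228 CPM in Ret-dominant sums, against 103.5 in Tafa4-high and 17.2 CPM in Calca-high sums. Between the Nefh-low groups, Atp2b1, Atp2b2 and Ano3 rose in Tafa4-high sums by 1.29, 2.59 and 1.81, and Ryr2 fell by 3.95 (adjusted p of 0.00034 to 0.0110, edgeR). Atp2b3 was lower as well, at 0 counts in Tafa4-high cells. Its pooled Calca-high level of 3.39 CPM was 16.5 times a floor of 3 counts, with the error of that level left out. Of 3 further alpha-1 genes, Cacna1f and Cacna1s had a median of 0 in every group, and Nalcn, a sodium leak channel, stood at -0.04 in Nefh-high against Nefh-low sums (adjusted p = 0.946, edgeR).

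Genes whose CPM followed Cacna1h most closely over all cells, among 13178 genes seen in at least 50% of cells, were Rprm (Spearman 0.55), Sertad4 (0.53), Slc24a3 (0.51), Fam20c (0.49) and Gm49743 (0.48). The cells share litters, depth and neuron groups, and the values are a description. Slc24a3, a sodium-calcium-potassium exchanger, had its highest median, 135.5 CPM, in Ntrk2-dominant cells, against 44.9 CPM in Ntrk3-dominant and 48.6 CPM in Ret-dominant cells. Rprm had medians of 304 CPM in Ntrk2-dominant and 216 CPM in Tafa4-high cells, the groups with the highest Cacna1h medians, and 156 and 182 CPM in Ntrk3- and Ret-dominant cells. For the other members the closest pairs were Srrm2 (0.54) and Gm48267 (0.54) for Cacna1a, Ppp3cb and Ptprf (0.54 each) for Cacna1b, and Adcy5 (0.63) and Zbtb20 (0.60) for Cacna1c. They were Gm32710 (0.46) and Slco5a1 (0.43) for Cacna1d, Arhgap15 (0.48) and Pde8b (0.41) for Cacna1e, Bicc1 (0.34) and Tgfbr2 (0.31) for Cacna1g, and Prima1 and Foxn3 (0.46 each) for Cacna1i. Weak correlations of sparse genes such as Cacna1g rest on few cells with a count.

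No alpha-1 gene passed between hairy and glabrous skin, with edgeR or with DESeq2, and none was at an unadjusted p under 0.05 (edgeR). The question the labels pose is whether neurons of the 2 skin types differ, and 7 litters had at least 2 cells of each. In this fit 12 of 12852 genes passed, 0.0934% of those tested (0.0389% higher, 0.0545% lower), with 1277 at an unadjusted p under 0.05 (edgeR), and DESeq2 called 337. Of the 8 alpha-1 genes 5 had enough counts to be tested.

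Cacna1h sums in hairy cells were 36.0 (litter C_D), 15.7 (E_F_G), 6.18 (H), 12.03 (K), 12.5 (L), 23.1 (O) and 21.4 CPM (P_Q). In glabrous cells of those litters they were 17.04, 36.98, 48.9, 12.5, 10.1, 23.3 and 39.9 CPM. The ranges overlapped over most of their length, with hairy lower in 5 litters and higher in 2. The means were 18.1 ± 9.77 CPM in hairy and 26.9 ± 15.03 CPM in glabrous sums (SD, n = 7), a change of -0.51 ± 0.41 on the log2 scale (adjusted p = 0.730, edgeR). A fit with the neuron group as a further term gave -0.05. That fit used 62 sums of at least 1 cell from 10 litters, against 14 sums from 7 litters, so the 2 values differ in more than that term. The Ntrk2-dominant cells were 2 hairy and 14 glabrous cells.

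The other tested genes spread as widely. Hairy and glabrous sums averaged 22.3 ± 14.8 and 16.8 ± 5.50 CPM for Cacna1a, 54.5 ± 22.7 and 53.6 ± 21.8 CPM for Cacna1b, 19.7 ± 17.4 and 12.1 ± 5.30 CPM for Cacna1c and 5.65 ± 4.46 and 7.09 ± 2.49 CPM for Cacna1d. Their log2 changes were 0.18 ± 0.34, 0.08 ± 0.36, 0.31 ± 0.61 and -0.62 ± 0.56, with adjusted p of 0.757 to 0.964 (edgeR). Cacna1i did not pass the filter on low counts, and its sums averaged 2.25 ± 2.87 CPM in hairy and 0.17 ± 0.24 CPM in glabrous cells, higher in hairy cells in 5 of 7 litters. Tafa4-high cells, which hold most of it, were 14 of the 45 hairy cells and 6 of the glabrous ones, and within that group Cacna1i was detected in 11 of 14 hairy and 1 of 6 glabrous cells. The glabrous Tafa4-high cells were of plate 1, except for 1 cell of litter M, which was of plate 2 and held 12.8 CPM Cacna1i. Most hairy ones were of plate 2, so skin type and plate cannot be fully told apart in this group. Cacna1e (3.53 ± 4.36 and 2.84 ± 1.27 CPM) and Cacna1g (0.28 ± 0.60 and 0.04 ± 0.07 CPM) were likewise not tested. Schwann cell markers summed to a median of 3330 CPM (1497 to 12078) in hairy and 1415 CPM (1228 to 6450.3) in glabrous litter sums. They were higher in hairy cells in every litter but L, and their part in these values was not tested.

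**Figure D5:**
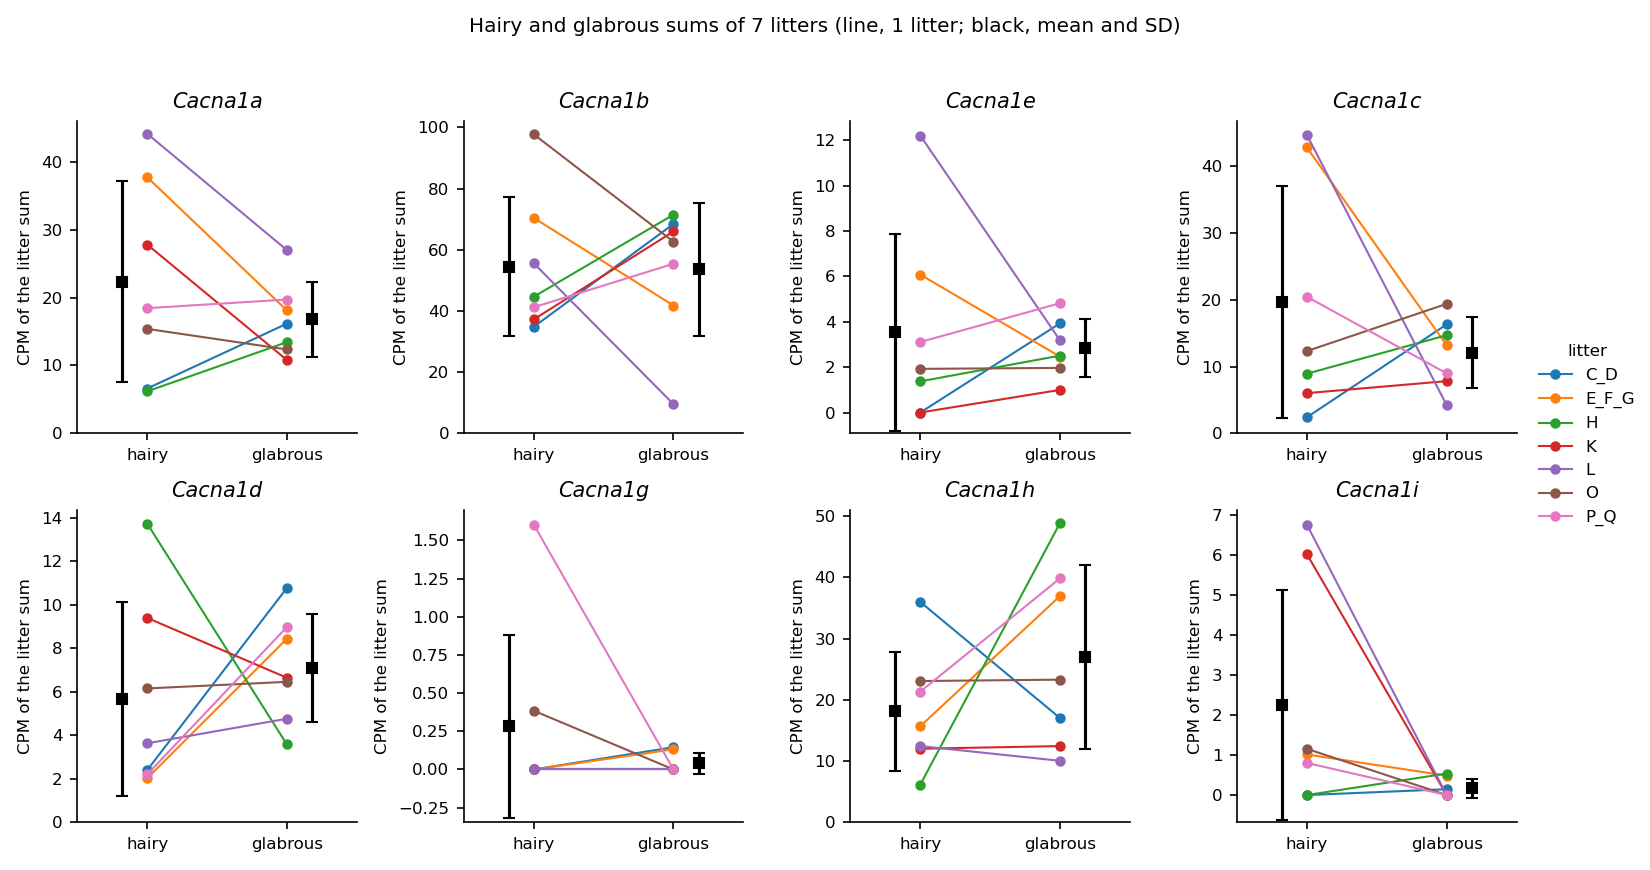
CPM of the litter sum in hairy (left) and glabrous (right) cells for the 8 genes, with a line for each of 7 litters and the mean and SD in black. Lines of Cacna1h cross, with hairy lower in 5 litters, and Cacna1i is at 2.25 CPM in hairy and 0.17 CPM in glabrous sums on average.

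Among Nefh-high cells with low Calca, where 6 litters held at least 1 cell of each skin type, 46 of 10840 genes passed (0.424%, 0.101% higher and 0.323% lower) and none of the 4 tested alpha-1 genes did. Hairy sums of Cacna1h were 9.70 (A_B), 36.0 (C_D), 0 (E_F_G), 6.98 (H), 8.81 (K) and 45.6 CPM (P_Q), against 23.4, 33.9, 49.4, 48.9, 13.9 and 36.99 CPM in glabrous cells. Each hairy sum rests on 1 to 3 cells, and the glabrous sums of litters A_B, C_D and H on 1 or 2. The 2 highest hairy sums, of C_D and P_Q, each held 1 of the 2 hairy Ntrk2-dominant cells, at 43.8 and 130.3 CPM Cacna1h. The change was -1.13 ± 0.61 (adjusted p = 0.584, edgeR), and Cacna1d stood at -1.24 ± 0.67 (adjusted p = 0.582), Cacna1a at 0.53 ± 0.45 (adjusted p = 0.768) and Cacna1b at -0.27 ± 0.31 (adjusted p = 0.844, edgeR). Cacna1c was too low to be tested there, with sums of 0.89 ± 1.03 CPM in hairy and 4.53 ± 3.29 CPM in glabrous cells (SD, n = 6), lower in hairy cells in 5 litters and at 0 in both in litter A_B. Requiring 2 cells per sum took the Cacna1h change to -0.0016, but kept only 3 litters (C_D, K and P_Q). Those include both litters whose hairy sum held a Ntrk2-dominant cell.

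Age was compared in glabrous cells, between 7 litters of day 5 and 2 litters of day 4 (K and P_Q). With edgeR 0 of 15185 genes passed (0.0%), 422 were at an unadjusted p under 0.05, and DESeq2 called 3. Cacna1h sums averaged 26.6 ± 12.9 CPM at day 5 (range 10.1 to 48.9) and were 12.5 and 39.9 CPM at day 4, a change of 0.07 ± 0.51. Cacna1c stood at 0.71 ± 0.39, Cacna1a at 0.38 ± 0.41, Cacna1b at -0.28 ± 0.46, Cacna1d at -0.10 ± 0.39 and Cacna1e at 1.097 ± 1.05, and Cacna1g and Cacna1i were too low to be tested. With 2 litters at day 4, of which P_Q was on plate 2 and K on both plates, age and plate cannot be fully told apart.

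The genes lie on 8 chromosomes in the mm10 assembly, and 3 overlap the exons of another gene on the other strand. Cacna1h (ENSMUSG00000024112.16, chr17:25374285-25433783, minus strand) overlaps Tpsg1, which had 2 counts in all cells, against 2988 for Cacna1h. Cacna1a (chr8:84388440-84640246, plus strand) overlaps Gm16183, with 43 counts against 2232. Cacna1d (chr14:30039939-30491455, minus strand) overlaps Chdh, with 45 counts against 743. The library kit does not mark strand, so reads in the shared exons cannot be told apart. Cacna1b (chr2:24603887-24763152), Cacna1c (chr6:118587240-119196418), Cacna1e (chr1:154390731-154884501) and Cacna1g (chr11:94408391-94474198) on the minus strand and Cacna1i (chr15:80287238-80398279) on the plus strand overlap no other annotated exon.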

How the data were processed

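Polyadenylated RNA of single neurons was amplified in 5 cDNA batches, made into libraries with a transposase kit that does not mark strand and sequenced on 2 plates, per the labels' protocols. The deposited table holds expected counts per gene, written as whole numbers, deposited by the authors. The submitters' processing notes name Salmon, cutadapt, FastQC and the build mm10, without their order or settings. Each sample is 1 cell, so cells are not replicates. Counts were summed per litter and neuron group, or per litter and skin type, for sums of at least 2 cells (at least 1 for Nefh-high skin sums), and tested with edgeR 4.0.16 in R 4.3.3 (TMM scaling, its filter on low counts, quasi-likelihood fit, adjusted p under 0.05). The litter, named in the labels, was a block in fits where it holds several sums. All 36 neuron-group sums of 10 litters shared 1 fit, among them 2 sums of the cells outside the named groups. No label ties cells to animals. In fits with the litter as a block, p-values measure the spread of the sums that remains within litters. Only in the age fit, which has no block, do they measure the spread between litters. Levels were computed with pandas 2.3.3 and drawn with matplotlib 3.10.9, and DESeq2 1.42.0 was an alternative. The scripts were checked on simulated counts. The 8 genes, the neuron groups and the partner lists were chosen with earlier results of these data known. Named genes were the 8 alpha-1 genes, partner genes that passed, the 2 partners of a list with the highest mean, and the genes closest in rank correlation. The cell with both skin labels was left out of all comparisons. Of the lists, 1 channel regulator and 1 Schwann cell marker are not reported here and were left out of their lists' counts and sums.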

Additional observations from a re-analysis of the deposited data

Results flagged for a closer look

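In 5 of 30 sets of litter sums the highest litter stood apart from the rest by Dixon's criterion. Chance meets it in about 1 set in 20 where values are normal and of equal spread. Sums of few and unequal numbers of cells need not be, so the 5 sets cannot be held against that rate. The flagged sums held 2 cells each, and 3 cells for Cacna1d. No explanation was weighed. Cacna1h in Nefh-high Calca-high cells was 96.3 CPM in litter H, and the next of 8 litters was at 29.2 CPM. That litter holds the Calca-high cell with 180.1 CPM Cacna1h and 467 CPM Ntrk2. Cacna1a in Nefh-high Calca-high cells was 39.3 CPM in litter A_B, with the next of 8 litters at 24.3 CPM. Cacna1b was 158.1 CPM in Tafa4-high cells of litter O (next of 7 litters, 83.05 CPM) and 141.5 CPM in Nefh-low Calca-high cells of litter M (next of 6 litters, 87.6 CPM). Cacna1d was 2.86 CPM in Nefh-low Calca-high cells of litter E_F_G, with the next of 6 litters at 1.02 CPM, values that rest on few counts.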

How the results depend on the processing

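The Cacna1h difference of Ntrk2-dominant cells kept its direction under all alternatives run, from 1.95 (log2, each receptor over its own mean, adjusted p = 0.143) to 3.30 (Nefh-high groups alone in the fit, chosen after seeing the data, as were the plate splits), and within plate 2 it was 2.16 without passing. In that contrast 59 genes passed, against 186 with DESeq2, 275 without the filter on low counts, 90 in cells with at least 10000 detected genes, 89 with at least 3 cells per sum, 93 in glabrous cells, 12 with a Nefh limit of 1000 CPM, 1 within plate 2 and 190 with Nefh-high groups alone. The 1 alpha-1 gene called became 0 with each receptor over its own mean and 0 within plate 2.

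For Nefh-high against Nefh-low sums, 3395 genes became 729 within plate 2, and the 3 alpha-1 genes called became 1 with at least 3 cells per sum, 1 with a Nefh limit of 250 CPM and 0 within plate 2. Cacna1h was lost in these 3 settings and with at least 1 cell per sum, and Cacna1b in these 3 and in glabrous cells (adjusted p = 0.0678, edgeR). For Tafa4-high against Calca-high sums, 1409 genes became 2282 with DESeq2, 634 with at least 1 cell per sum, 93 in glabrous cells, 383 within plate 1 and 647 within plate 2. The 2 alpha-1 genes called became 4 with DESeq2, 1 with at least 1 cell, 1 with at least 3 cells, 0 in glabrous cells, 0 within plate 1 and 1 within plate 2. Cacna1h in this contrast turned to -0.031 within plate 1.

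Between skin types, 12 genes became 337 with DESeq2, 342 without the filter, 1 with at least 1 cell and 21 with at least 3 cells. They became 4 with the neuron group in the model, on 62 sums of at least 1 cell. With edgeR they became 0 within plate 1 (521 at an unadjusted p under 0.05) and 0 within plate 2 (1439 at an unadjusted p under 0.05). In Nefh-high cells 46 became 266 with DESeq2, 418 without the filter and 3 within plate 1. Between ages, 0 genes with edgeR (422 unadjusted) became 3 with DESeq2, and Cacna1h turned to -0.62 within plate 2. No alpha-1 gene was called between skin types or ages by any alternative.

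Leaving out litters in turn gave 13 to 71 genes and 0 to 1 alpha-1 genes for Ntrk2-dominant cells, with Cacna1h at 2.50 to 3.05. It gave 1957 to 3662 genes and 1 to 4 alpha-1 genes for Nefh-high cells, and 857 to 1472 genes and 1 to 3 alpha-1 genes for Tafa4-high cells. It gave 0 to 15 genes between skin types, 6 to 37 in Nefh-high cells, and 0 to 1 between ages, where Cacna1h ran from -0.52 to 1.07. Without the litter block, the pairing of sums of 1 litter, Cacna1h changed by 2.59 in Ntrk2-dominant cells (adjusted p = 0.0246, edgeR), 84, 4150 and 1680 genes passed in the 3 neuron-group contrasts, and 11 and 31 between skin types. Cacna1d then passed in Nefh-high cells (1.83, adjusted p = 0.0136, edgeR), as it did in 6 of 15 alternatives in all, and Cacna1h against Ret-dominant cells alone (2.51, adjusted p = 0.0403, edgeR). The causes of these shifts were not tested. With about 1 CPM per count, levels under a few CPM, as for Cacna1g and Cacna1i, are limited by depth, and 3 litters carry the Ntrk2-dominant sums.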

Other observations

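The cell that carried both skin labels was Ret-dominant by its markers and came from litter A_B, with 797882 counts. It held 102.8 CPM Cacna1b, 40.1 CPM Cacna1h, 25.1 CPM Cacna1a, 10.03 CPM Cacna1d and 2.51 CPM Cacna1c, with Cacna1e, Cacna1g and Cacna1i at 0. In Tafa4-high cells skin type went largely with plate. Within that group the Cacna1h median was 25.9 CPM in 14 hairy cells and 11.6 CPM in 6 glabrous cells, a difference that was not tested. In Ret-dominant cells it was 10.2 CPM in 10 hairy and 14.8 CPM in 25 glabrous cells.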
